A study of Mus musculus with 16 samples.

Results

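Processed transcripts are RNA genes that the annotation could place neither among the protein coding genes nor in a narrower noncoding class, and several of them carry microRNAs or small nucleolar RNAs (snoRNAs) inside their exons or introns. All genes with the biotype processed_transcript in the deposited comparison table were taken, 55 of 3071 genes. Of these 3 have names beginning with Snhg or Mir (Snhg14, Snhg17 and Mir22hg), which mark small-RNA host genes, and 52 do not. The names miss part of the hosts, as 8 of the 55 genes hold an annotated microRNA or snoRNA on their own strand in GENCODE M21 and 47 do not. The libraries came from C57BL/6 bone marrow-derived macrophages, described as from aged mice in the series title, with no age in the labels. Bone marrow cells were cultured with 10 ng/mL M-CSF for 7 days. They were then given PBS (8 control libraries, numbered 2, 3, 5, 7, 9, 10, 12 and 13) or 10 µg/mL of beta-glucan from Candida albicans (8 libraries, numbered 5, 6, 7, 8, 9, 10, 12 and 13) for 24 hours. All cells then rested for 7 days before RNA was taken. The labels name no genetic change in either group and do not say that each library had its own mouse or culture. The p-values therefore measure only how these samples vary, and that variation may be technical. The table lists only genes under an adjusted p of 0.05 in the authors' own test of this same contrast, so the calls given here describe the listed genes and are no independent evidence.

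A host gene is transcribed as a long precursor, and its small RNAs are cut from that precursor or from the introns removed from it. MicroRNAs load onto Argonaute proteins and pair with messenger RNAs mainly through bases 2 to 8, the seed. Many box C/D snoRNAs guide methylation of ribosomal RNA and many box H/ACA snoRNAs guide its conversion to pseudouridine. What the snoRNAs of these hosts guide was not examined. The spliced host RNA often has no known role of its own, and its level need not follow the level of the small RNAs. The RNA sequenced here shows the host transcripts, and none of the small RNAs inside the 55 genes is itself listed in the table.

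The mature microRNAs carried by the hosts are printed from RefSeq (GRCm38.p6), 5′ to 3′, to show which hosts deliver the same seed. Capitals mark bases 2 to 8.
miR-22-3p (Mir22hg): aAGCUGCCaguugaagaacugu
miR-22-5p (Mir22hg): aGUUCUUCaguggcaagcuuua
miR-15a-5p (Dleu2): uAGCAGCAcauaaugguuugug
miR-16-5p (Dleu2): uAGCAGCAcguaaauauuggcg
miR-29b-3p (A330023F24Rik): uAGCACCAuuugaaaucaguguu
miR-29c-3p (A330023F24Rik): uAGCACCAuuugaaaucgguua
miR-760-3p (Gm17494): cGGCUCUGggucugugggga
The microRNAs of Dleu2 share the seed AGCAGCA and 16 of 22 positions, and those of A330023F24Rik share the seed AGCACCA and 19 of 22 positions. Mir22 (chr11:75463716-75463810, plus strand), Mir16-1 (chr14:61631880-61631972, minus strand), Mir29b-2 (chr1:195037040-195037120, plus strand), Mir29c (chr1:195037547-195037634, plus strand) and Mir760 (chr3:122293585-122293703, minus strand) overlap an exon of at least 1 annotated transcript of their host. Mir15a (chr14:61632027-61632110, minus strand) lies in an intron of Dleu2.

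The snoRNAs are printed from the GENCODE M21 transcripts (GRCm38), to show that the snoRNA hosts carry different kinds. In the first 3, capitals mark the letters TGATGA and CTGA of boxes C and D. In the last 3 they mark the terminal ACA, the letters of the H/ACA box.
Gm24866 (Snhg14, chr7:59393561-59393639, minus strand): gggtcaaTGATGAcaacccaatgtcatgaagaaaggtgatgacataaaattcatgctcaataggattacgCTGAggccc
Gm22285 (Snhg14, chr7:59678509-59678602, minus strand): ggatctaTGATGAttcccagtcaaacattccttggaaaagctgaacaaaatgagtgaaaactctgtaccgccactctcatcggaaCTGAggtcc
Snord89 (Gm15832, chr1:39548745-39548854, minus strand): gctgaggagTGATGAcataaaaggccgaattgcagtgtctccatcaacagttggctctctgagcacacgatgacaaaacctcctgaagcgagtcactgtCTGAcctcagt
Gm24411 (Snhg17, chr2:158356424-158356554, minus strand): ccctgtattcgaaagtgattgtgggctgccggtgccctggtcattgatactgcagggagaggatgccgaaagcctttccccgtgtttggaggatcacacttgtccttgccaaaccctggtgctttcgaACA
Gm26003 (Snhg17, chr2:158358360-158358472, minus strand): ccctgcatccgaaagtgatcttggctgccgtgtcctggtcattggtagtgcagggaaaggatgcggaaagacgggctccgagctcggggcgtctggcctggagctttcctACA
Gm23925 (Snhg17, chr2:158359798-158359929, minus strand): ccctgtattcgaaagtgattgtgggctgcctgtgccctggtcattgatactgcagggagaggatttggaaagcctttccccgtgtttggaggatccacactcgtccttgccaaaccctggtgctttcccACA
Snhg14 spans 208 annotated snoRNAs, of which 206 lie in introns. They have 85 distinct sequences, and Gm24866 and Gm22285 stand for the most repeated ones, present in 33 and 30 identical copies. TGATGA followed by CTGA occurs in 205 of the 208. The 3 snoRNAs of Snhg17 overlap exons and are related, with 124 of 132 aligned positions identical between Gm24411 and Gm23925 and 92 of 131 between Gm24411 and Gm26003. Snord89 lies in an intron of Gm15832. Cct6a holds Snora15 in an exon and Gm23245 in an intron.

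Each library had between 4382665 and 5600727 reads on the genes of the table, and the authors' size factors lay between 0.864 and 1.16. The macrophage identity of the cells could be checked on 5 of 10 markers listed in the table. The sum of Adgre1, Csf1r, Itgam, Mertk and Cd14 lay between 1302 and 2181 FPKM (reads scaled to gene length and library size) in control libraries. With beta-glucan it lay between 1133 and 1330.4 FPKM. The markers did not move alike. In the edgeR test described below, Adgre1, Csf1r and Mertk fell (log2 fold changes of -0.56, -0.68 and -0.73). Cd14 rose (0.52), and Itgam did not pass (-0.50, adjusted p = 0.0771). Of 47 markers of 9 other cell types, 3 were listed, the B cell gene Cd79b, the endothelial receptor gene Kdr and the erythropoietin receptor gene Epor, at no more than 2.17 FPKM in any library. Epor lay between 1.06 and 2.17 FPKM in controls and between 0.370 and 0.775 with beta-glucan. The other markers were not analysed here. In bulk RNA, fewer cells of a type and less RNA per cell cannot be told apart.

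The processed transcripts were lower after beta-glucan with few exceptions. In the authors' deposited table the lower genes were 53 of the 55, and the 2 higher ones were Cct6a and Ptpmt1, whereas 64.9% of all 3071 listed genes were lower. The authors called 11.6% of the 17130 genes they tested lower. Of the 55, 43 passed the count filter of the edgeR quasi-likelihood test, and of these 34 fell, 1 rose and 8 did not pass an adjusted p of 0.05. Among all 2738 listed genes past the filter, 42.8% fell, 25.9% rose and 68.7% changed in either direction. Because the listed genes had been chosen on this contrast, these shares describe the table and not the transcriptome. Of the falls, 28 were at least 1 in size on the log2 scale. The median log2 fold change, beta-glucan over control, was -1.33 over the 43 tested genes, with a range from -3.18 to 0.53, and -0.41 over all listed genes tested. The median was -0.36 for protein coding genes. A scarce gene tends to need a larger change to be listed. The processed transcripts were scarcer than the listed coding genes, with a median of 0.405 against 6.48 FPKM. The distance between these medians therefore does not show that the class fell more.

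**Figure D1:**
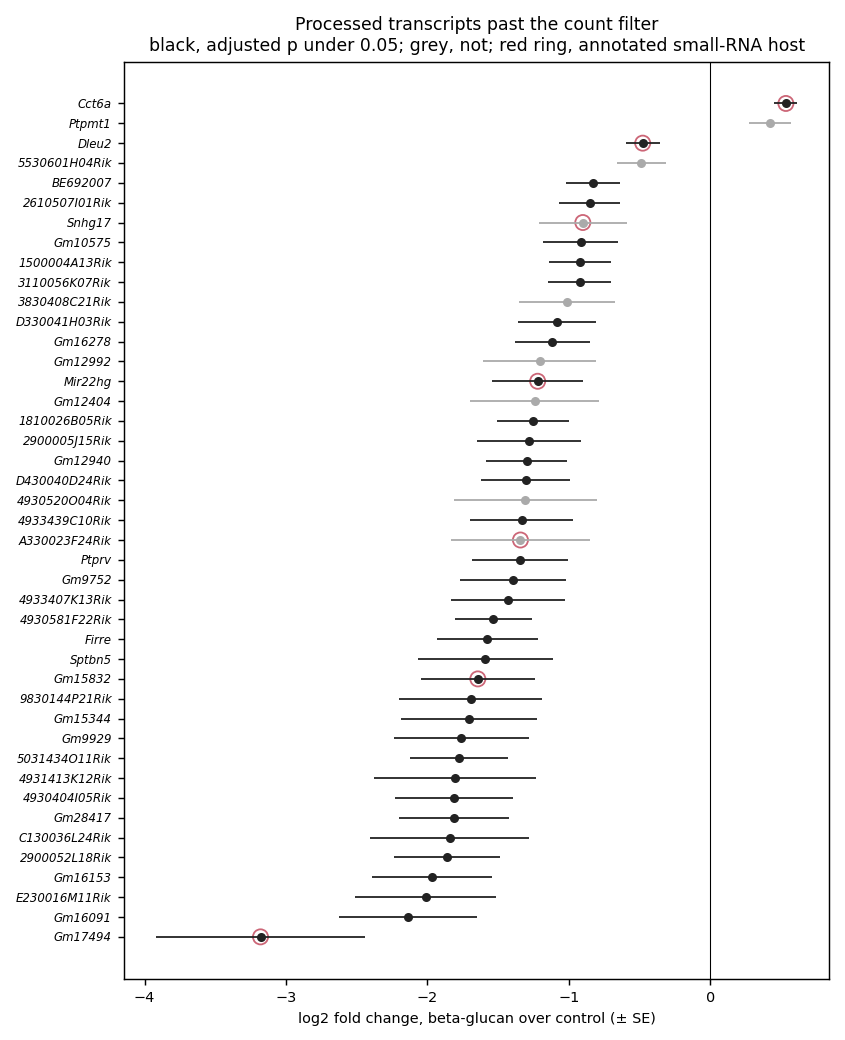
Log2 fold change, beta-glucan over control, with its standard error, for the 43 processed transcripts past the count filter, from the edgeR fit on 8 control and 8 beta-glucan libraries. Black points passed an adjusted p of 0.05, grey ones did not, and red rings mark genes that hold an annotated small RNA. Only Cct6a and Ptpmt1 lie right of 0, and the hosts are spread from the largest fall (Gm17494, -3.18) to the largest rise (Cct6a, 0.53).

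The scale of the shift depended on how libraries were scaled. Scaling by TMM, or by size factors recomputed on the table, moved the median of all listed genes from -0.41 to -0.21 and -0.20. These factors come from a table in which most genes were lower, so they move values up by construction. The higher share of all calls was 37.7% with the deposited factors, 66.2% with TMM and 67.4% with the new factors. Of the 43 processed transcripts, 41 had negative values under each of these scalings.

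The processed transcripts were scarce. Their median level over all libraries was 0.405 FPKM, with a range from 0.0267 to 47.6, beside 6.48 FPKM for the listed protein coding genes and 4.67 for all listed genes. A level under 1 FPKM was found in 39 of the 55. Over all 16 libraries their reads ranged from 29 for Gm20427 to 49870 for Cct6a. In 20 of them at least 1 beta-glucan library had no read, and in 4 at least 1 control had none. Names of the Gm or Rik kind, given to genes without an assigned function, were carried by 45.

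Mir22hg, the host of miR-22 (ENSMUSG00000085148, chr11:75461539-75466676, plus strand, mm10), was the most abundant host after Cct6a, at 18.1 FPKM over all libraries. Its normalized count ranged from 357 to 1809 in controls (median 756) and from 197 to 582 with beta-glucan (median 364). Controls 2 (1587) and 3 (1809) stood above all other libraries, and controls 9, 10 and 13 lay inside the beta-glucan range, so the groups overlapped. The means were 874 ± 547 and 375 ± 128 (SD, n = 8 each), and Mir22hg fell (-1.22 ± 0.32, log2 fold change ± SE, adjusted p = 0.0203). Without controls 2 and 3 the change was -0.68 (adjusted p = 0.138), and without beta-glucan 7 and 12 it was -1.04 (adjusted p = 0.0890). Tlcd2, a coding gene whose span overlaps that of Mir22hg on the same strand, rose (0.94 ± 0.27, adjusted p = 0.0296), from 27.6 ± 9.52 to 53.0 ± 12.6 normalized counts. The Tlcd2 call ended in 5 of 16 leave-one-out fits, each lacking a single library (controls 2 and 10, beta-glucan 7, 8 and 12), with adjusted p up to 0.0555.

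Dleu2 (ENSMUSG00000097589, chr14:61602839-61682373, minus strand), named for a region deleted in human chronic lymphocytic leukaemia and the host of miR-15a and miR-16, which restrain cell cycle genes, had the smallest fall of those called. Its normalized count ranged from 229 to 343 in controls (median 269.8) and from 158 to 249.7 with beta-glucan (median 191). The highest beta-glucan library, 10, lay above controls 5, 7 and 10, and the other beta-glucan libraries lay below all controls. The means were 274 ± 41.9 and 197 ± 28.2, and Dleu2 fell (-0.48 ± 0.12, adjusted p = 0.0150). This call ended with TMM (-0.30, adjusted p = 0.270) and with the new size factors (-0.28, adjusted p = 0.299). It also ended without controls 2 and 3 (-0.43, adjusted p = 0.0736) and without beta-glucan 7 and 12 (-0.41, adjusted p = 0.0711).

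A330023F24Rik (ENSMUSG00000096929, chr1:194976375-195037904, plus strand) carries miR-29b and miR-29c, microRNAs known to repress collagen genes. It had few reads, with normalized counts from 10.4 to 35.2 in controls (median 20.7) and from 0 to 22.1 with beta-glucan (median 6.18). Beta-glucan 9 (17.6) and 10 (22.1) lay among the controls and beta-glucan 12 had no read. The change of -1.34 ± 0.49 did not pass (adjusted p = 0.0875), and it passed without beta-glucan 10 (-1.72, adjusted p = 0.0402) and in DESeq2 (-1.36, adjusted p = 0.0392).

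Gm17494 (ENSMUSG00000057359, chr3:122255958-122293720, minus strand), the host of miR-760, had the largest fall of all 43, and it rested on 3 controls. Its normalized count was 159 in control 2, 184 in control 3 and 125 in control 5, and between 9.74 and 30.3 in the other controls. With beta-glucan it ranged from 0 to 19.3 (median 5.14), so the groups overlapped. The means were 69.1 ± 73.7 and 7.46 ± 7.01, and Gm17494 fell (-3.18 ± 0.74, adjusted p = 0.0106). The change was -2.21 without controls 2 and 3 (adjusted p = 0.0775) and -1.19 without controls 2, 3 and 5 (adjusted p = 0.476). On the opposite strand it overlaps Gclm, the regulatory subunit of the enzyme that starts glutathione synthesis, and Dnttip2. Their changes did not pass, at -0.58 ± 0.22 for Gclm (adjusted p = 0.104) and 0.35 ± 0.12 for Dnttip2 (adjusted p = 0.0670). Single leave-outs brought both past the threshold. Gclm passed without control 12 (-0.65, adjusted p = 0.0492) or control 13 (-0.69, adjusted p = 0.0212). Dnttip2 passed without beta-glucan 13 (0.40, adjusted p = 0.0387) or control 10 (0.41, adjusted p = 0.0372).

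**Figure D2:**
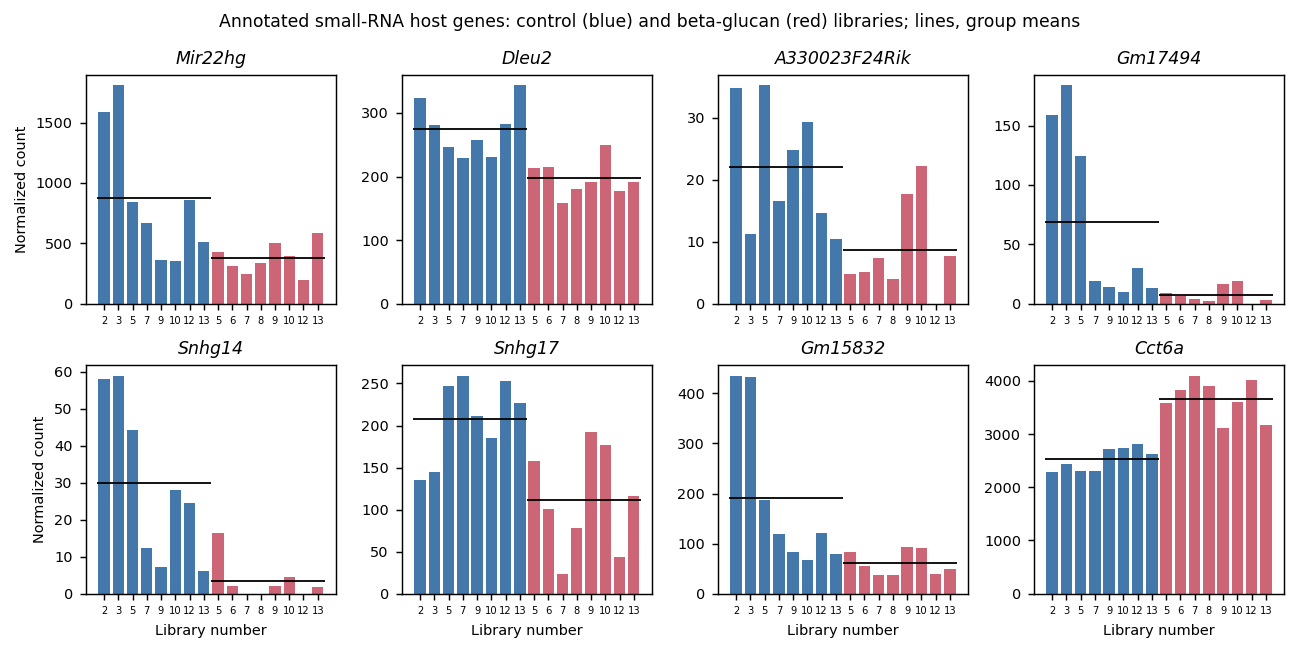
Normalized count (y axis, each panel with its own scale from 0) of the 8 processed transcripts that hold an annotated microRNA or snoRNA, in each library (x axis, library number). Blue bars are control and red bars beta-glucan libraries, and the black lines are the means of 8. Controls 2 and 3 are the highest libraries in Mir22hg, Gm17494 (with control 5 next, at 125) and Gm15832 but are the lowest controls of Snhg17, and Cct6a is the panel in which every beta-glucan library is above every control.

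Snhg14 (ENSMUSG00000100826, chr7:59307924-59975759, minus strand) is an imprinted host that is best known from neurons, where it runs across Ube3a on the opposite strand and silences its paternal copy. In these macrophages it was among the scarcest members, at 0.0356 FPKM over all libraries (computed by the authors on a gene length of 26093 bases, within a span of 667836), and did not pass the count filter. Its normalized count ranged from 6.05 to 58.9 in controls (median 26.3) and from 0 to 16.4 with beta-glucan (median 1.98). Controls 2, 3 and 5 were the highest, and beta-glucan 7, 8 and 12 had no read. Beta-glucan 5 stood apart from its group at 16.4, with the next at 4.61, and lay above controls 7, 9 and 13. The means were 29.9 ± 21.6 and 3.39 ± 5.48, and in the fit without the filter Snhg14 fell (-3.06 ± 0.72, adjusted p = 0.0105).

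Snhg17 (ENSMUSG00000085385, chr2:158353700-158361580, minus strand) did not share the high controls of several other hosts. Its normalized count ranged from 135 to 259 in controls (median 219) and from 23.9 to 193 with beta-glucan (median 109). Controls 2 (135) and 3 (145) were its lowest controls, whereas they were the highest for Mir22hg, Gm17494, Snhg14 and Gm15832. In Dleu2, A330023F24Rik and Cct6a the mean of these controls lay near that of the others, at 1.14, 1.05 and 0.914 times it. Beta-glucan 7 (23.9) and 12 (44.2) were its lowest libraries, and beta-glucan 5, 9 and 10 lay among the controls. The means were 208 ± 48.2 and 111 ± 61.4, and the change of -0.90 ± 0.31 did not pass (adjusted p = 0.0678). Without beta-glucan 9 it passed (-1.06, adjusted p = 0.0415), as it did in DESeq2 (-0.90, adjusted p = 0.0268).

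Gm15832 (ENSMUSG00000085894, chr1:39547570-39552002, minus strand), with Snord89 in an intron, reached a normalized count of 435 in control 2 and 433 in control 3, while the remaining controls lay between 68.2 and 188. With beta-glucan it ranged from 37.0 to 93.5 (median 51.9). All beta-glucan libraries lay below controls 2, 3, 5, 7 and 12, and the other controls fell inside their range. The means were 191 ± 155 and 60.8 ± 25.0, and Gm15832 fell (-1.64 ± 0.40, adjusted p = 0.0137). The call ended without controls 2 and 3 (-0.85, adjusted p = 0.105) and without beta-glucan 7 and 12 (-1.48, adjusted p = 0.0668). Gm15832 lies within the span of Rnf149, a ubiquitin ligase gene, on the same strand. Rnf149 rose (0.49 ± 0.10, adjusted p = 0.00648), from 4281 ± 559 to 6027 ± 861 normalized counts.

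Cct6a (ENSMUSG00000029447, chr5:129786998-129846371, plus strand) was the most abundant of the 55, at 47.6 FPKM, and the processed transcript that rose. The gene is known to encode a subunit of the chaperonin that folds actin and tubulin, so the table's biotype does not describe its best known product. Its normalized count ranged from 2285 to 2804 in controls (median 2534) and from 3108 to 4096 with beta-glucan (median 3717). Every beta-glucan library lay above every control, and beta-glucan 7 (4096) and 12 (4009) were its highest. The means were 2527 ± 220.4 and 3661 ± 369, and Cct6a rose (0.53 ± 0.08, adjusted p = 0.00120).

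Ptpmt1, a mitochondrial phosphatase gene needed for cardiolipin synthesis and also listed with this biotype, was next in abundance after Cct6a and Mir22hg, at 5.83 FPKM. Its normalized count ranged from 240.2 to 524 in controls (median 309.6) and from 371 to 572 with beta-glucan (median 407). Control 12, at 524, stood apart from the other controls, which reached 356 and lay below all beta-glucan libraries. The change of 0.42 ± 0.15 did not pass (adjusted p = 0.0697), and passed without control 12 (0.55, adjusted p = 0.00445), with TMM (0.58, adjusted p = 0.0379), with the new size factors (0.60, adjusted p = 0.0254) and in DESeq2 (0.42, adjusted p = 0.0387).

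The genes named Snhg or Mir were too few to show whether they differ from the rest by count or median. No test over members was made because the members were listed for this contrast. Of the 3 so named, 2 passed the filter and 1 fell, with a median log2 fold change of -1.06 over the 2. Of the other 52, 41 passed the filter, 33 fell and 1 rose, with a median of -1.34. With hosts taken from the annotation, 7 of 8 passed the filter, 4 fell and 1 rose (median -1.22), and of the 47 without an annotated small RNA 36 passed and 30 fell (median -1.34). The falls made up 57.1% of the tested hosts and 83.3% of the tested others, beside 42.8% of all listed genes tested. This difference was not tested. The hosts had a higher median level, 1.21 FPKM beside 0.371 for the 47. They also covered longer stretches, with a median span of 48569 bases beside 12774.

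Among the members with no annotated small RNA the largest falls were in scarce genes known by systematic names, with no assigned role. Gm16091 had 9.60 to 55.3 normalized counts in controls (median 24.9) and 0 to 14.5 with beta-glucan (median 4.91), and fell (-2.14 ± 0.49, adjusted p = 0.00969). E230016M11Rik had 17.3 to 60.3 in controls (median 35.1) and 0 to 17.2 with beta-glucan (median 9.23), and fell (-2.01 ± 0.50, adjusted p = 0.0150). In E230016M11Rik the groups met at the edge without overlapping, while in Gm16091 control 7 lay inside the beta-glucan range. Gm16153 had 24.2 to 83.4 in controls (median 51.9) and 2.08 to 31.8 with beta-glucan (median 10.4), and fell (-1.97 ± 0.42, adjusted p = 0.00725). Its highest beta-glucan library was 5, and all the others lay below every control. Gm16153, Gm16091 and E230016M11Rik all had control 5 as their highest library. 2900052L18Rik had 14.7 to 69.5 in controls (median 41.0) and 2.08 to 17.3 with beta-glucan (median 12.4), and fell (-1.86 ± 0.37, adjusted p = 0.00490). Gm28417 had 7.57 to 79.4 in controls (median 51.3) and 4.15 to 26.0 with beta-glucan (median 13.4), and fell (-1.81 ± 0.39, adjusted p = 0.00698). In each of these genes 1 control, 9 in 2900052L18Rik and 10 in Gm28417, lay within the beta-glucan values. C130036L24Rik had 6.92 to 40.6 in controls (median 19.0) and 0 to 15.3 with beta-glucan (median 3.11), and fell (-1.84 ± 0.56, adjusted p = 0.0409). Its groups overlapped widely. That call ended in 11 of the 16 leave-one-out fits (controls 2, 3, 5, 10 and 12, beta-glucan 5, 6, 7, 8, 10 and 12), with adjusted p up to 0.0956, and with TMM (-1.65, adjusted p = 0.0724). Of the other calls, that of E230016M11Rik ended without controls 2 and 3 (-1.88, adjusted p = 0.0661). Without controls 2, 3 and 5 the calls of Gm16091 (-1.64, adjusted p = 0.142) and Gm16153 (-1.65, adjusted p = 0.105) ended. So did those of 2900052L18Rik (-1.43, adjusted p = 0.0956) and Gm28417 (-1.54, adjusted p = 0.100).

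BE692007, Gm12940 and 2610507I01Rik, with no annotated small RNA, were named for their abundance. They fell by less than the genes above, but those had been named for the size of their falls. BE692007 (3.86 FPKM) had 273 to 667 normalized counts in controls (median 499) and 170.0 to 373 with beta-glucan (median 245), and fell (-0.83 ± 0.19, adjusted p = 0.0107). Its order of libraries differed from that of most members, with beta-glucan 13 and 10 lowest and beta-glucan 6 highest in the group. Gm12940 (3.50 FPKM) had 160.1 to 391 in controls (median 237) and 36.3 to 183 with beta-glucan (median 93.9), and fell (-1.30 ± 0.29, adjusted p = 0.00810). Control 5, at 391, stood apart from the other controls, which reached 258, and beta-glucan 5 lay above controls 7 and 10. 2610507I01Rik (3.23 FPKM) had 61.5 to 154 in controls (median 104) and 38.9 to 73.3 with beta-glucan (median 56.7), and fell (-0.85 ± 0.22, adjusted p = 0.0163). Controls 9, 12 and 13 lay inside its beta-glucan range. Without controls 2 and 3 the calls of BE692007 (-0.69, adjusted p = 0.0608) and 2610507I01Rik (-0.67, adjusted p = 0.0958) ended, and 2610507I01Rik also missed without beta-glucan 7 and 12 (-0.73, adjusted p = 0.0735). Firre, chosen for mention after its values were seen, is a nuclear RNA from the X chromosome that is known in mouse for tethering chromatin regions. It had 353 to 1091 normalized counts in controls (median 647) and 61.2 to 416 with beta-glucan (median 208). It fell (-1.58 ± 0.35, adjusted p = 0.00909), with means of 626 ± 241 and 209.6 ± 132. Its level over all libraries was 2.82 FPKM.

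Complete separation of the groups was rare. The 8 beta-glucan values lay below all 8 controls in 2 processed transcripts, E230016M11Rik and 4930404I05Rik, and above them in 1, Cct6a. Over all 3071 listed genes this held for 4.85% in the lower and 2.67% in the higher direction. 4930404I05Rik had 17.5 to 41.6 normalized counts in controls (median 25.4) and 1.04 to 16.4 with beta-glucan (median 6.57), and fell (-1.81 ± 0.42, adjusted p = 0.0103).

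Most processed transcripts share DNA with a coding gene, and reads from overlapping genes cannot be assigned with certainty, because the strand setting of the counting is not given in the sources used here. Of the 55, 42 overlap a coding gene in GENCODE M21, 34 of them only on the opposite strand and 8 on the same strand. The median log2 fold change was -1.34 over the 32 tested members with such an overlap and -1.28 over the 11 without. The listed coding genes overlapping 18 members were 19 in number, 14 lower and 5 higher in the authors' deposited table. In edgeR 9 of these fell and 3 rose. Over all listed genes 64.9% were lower, and of those past the filter 42.8% fell and 25.9% rose. Gm16153 lies opposite Rmnd1, a mitochondrial translation gene, which fell (-0.50 ± 0.11, adjusted p = 0.00847). BE692007 lies opposite Ms4a6c, a membrane protein gene of myeloid cells, which fell (-0.60 ± 0.15, adjusted p = 0.0132). With TMM neither passed (Rmnd1 -0.33, adjusted p = 0.159, and Ms4a6c -0.40, adjusted p = 0.0631), nor did they with the new size factors (-0.31, adjusted p = 0.184, and -0.38, adjusted p = 0.0899). Without controls 2 and 3 the Ms4a6c call ended too (-0.48, adjusted p = 0.0767). E230016M11Rik lies opposite Gadd45a, a stress-induced growth arrest gene, which had a positive change that did not pass (0.52 ± 0.20, adjusted p = 0.101). It passed without control 12 (0.66, adjusted p = 0.0153). Gm28417 lies opposite the phosphatase gene Ptpn18, whose change did not pass (-0.70 ± 0.27, adjusted p = 0.113) and was -0.37 without control 12 (adjusted p = 0.429). The pairs thus held members that fell beside partners with positive values as well as beside partners that fell.

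Within the beta-glucan group the 53 lower members varied from library to library, and many had their lowest values in the same few libraries. To follow this, each gene's log2(normalized count + 1) was centred on its mean over the 16 libraries, and the 53 values of a library were averaged. The average lay between 0.37 and 1.26 in controls and between -1.90 and -0.15 with beta-glucan, so the groups did not overlap, which the choice of lower genes favours. Beta-glucan 7 (-1.90), 12 (-1.33) and 8 (-1.04) were lowest, and beta-glucan 5 (-0.15), 9 (-0.22) and 10 (-0.24) were nearest to the controls. The distance of 1.75 between the highest and lowest beta-glucan library exceeded the difference of -1.56 between the group means in size. Beta-glucan 7 was the lowest of its group, ties included, in 35 of the 53 and had no read in 16 of them. In 48 of the 53 the lowest beta-glucan library, ties included, was 7, 8 or 12. Beta-glucan 7, 8 and 12 were lowest alone in 26, 4 and 8 genes. They have the lowest averages over these same genes, which favours such counts, and the share over all listed genes was not computed. In 25 of the 53 all of these libraries lay below the gene's beta-glucan median.

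**Figure D3:**
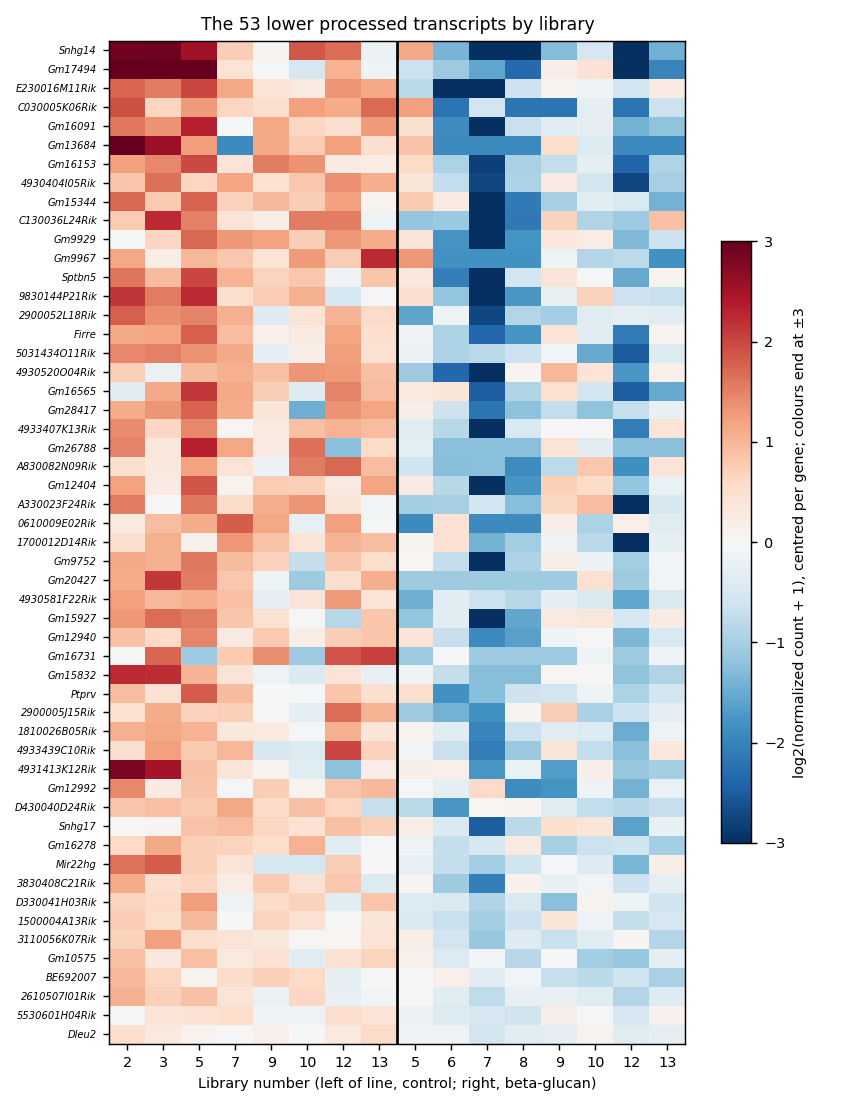
Log2(normalized count + 1), centred per gene, for the 53 processed transcripts lower after beta-glucan (rows, ordered by group difference) in each library (columns), with red above and blue below the gene's mean and colours ending at 3 in either direction. Beta-glucan 7 and 12 form dark blue columns, and beta-glucan 5, 9 and 10 are pale in most rows.

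Among controls the averages of 5 (1.26), 2 (1.16) and 3 (1.10) were highest and that of control 10 lowest (0.37). The highest control was 2, 3 or 5 in 40 of the 53. Controls 2 and 3 were not high throughout. In the 55 genes their mean was more than 2 times that of the other controls in 7 and below it in 16, with a median ratio of 1.18. The ratio reached 4.88 in Gm17494, 3.95 in Gm15832 and 2.83 in Mir22hg, and was 0.609 in Snhg17. Without controls 2 and 3, 13 processed transcripts were called, and without controls 2, 3 and 5 there were 2. Leaving out beta-glucan 7 and 12 left 20 calls. Calls over all listed genes also dropped, from 1882 with all libraries to 629, 211 and 785 in these fits. The medians over the tested members were -1.29, -1.08 and -1.13 in these fits. Of the 35 genes called with all libraries, 13, 2 and 19 were called again.

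Beta-glucan 7, 8 and 12 were also the lowest libraries of their group in other noncoding classes. In lincRNAs (87 listed genes), antisense RNAs (100) and genes of the class TEC, which await experimental evidence (114), beta-glucan 7 had the lowest average and 12 and 8 the next. In the authors' deposited table the lower genes of these classes numbered 85, 98 and 112, with median log2 fold changes of -1.22, -1.40 and -1.61 over the tested genes. The 20 sense intronic RNAs had their lowest averages in the order 7, 8 and 12. The rest of the order differed between classes, as the lowest control was 10 for processed transcripts (0.37), 13 for lincRNAs (0.31) and 12 for antisense (0.29) and TEC genes (0.02). The processed transcripts' median, at -1.33, lay within the range of the medians of the other classes. The 1535 lower protein coding genes had a narrower spread among beta-glucan libraries, from -0.58 to -0.18, with beta-glucan 12, 7 and 8 again lowest. Their group means were closer together too. These were 0.38 in controls and -0.38 with beta-glucan, beside 0.78 and -0.78 for the processed transcripts. Whether the narrower spread goes with their level or their smaller group difference was not tested. No test sets these classes apart, and what distinguishes beta-glucan 7, 8 and 12 is not recorded in the labels.

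**Figure D4:**
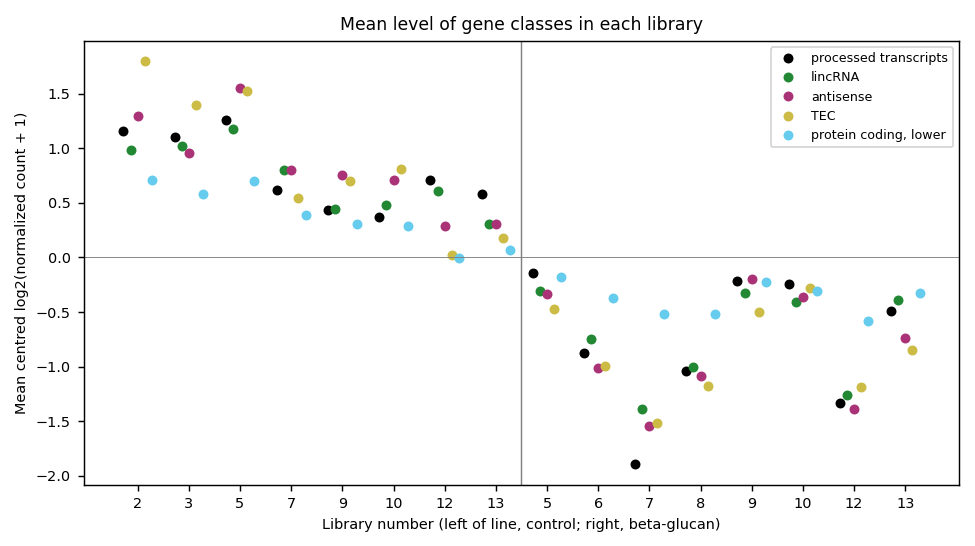
Mean of centred log2(normalized count + 1) over the genes of a class (y axis) in each library (x axis, library number, controls left and beta-glucan right of the line), for the 53 lower processed transcripts, all listed lincRNA, antisense and TEC genes and the 1535 lower protein coding genes. The noncoding classes dip together in beta-glucan 7, 8 and 12. These are also the lowest beta-glucan libraries of the coding genes, within a narrower range from -0.58 to -0.18.

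The proteins that handle the small RNAs were read from 4 lists of genes, of which part was in the table. Over all listed genes 64.9% were lower in the authors' table. Of those past the filter 42.8% fell and 25.9% rose. Genes of the lists outside the table were not analysed here, so the counts describe only those in it. Of 19 proteins of box C/D and H/ACA snoRNA particles and their assembly, 5 were listed, all higher, and 3 rose, with a median log2 fold change of 0.42. Nhp2, a core protein of H/ACA particles, rose (0.62 ± 0.15, adjusted p = 0.0121), as did the box C/D core proteins Nop58 (0.41 ± 0.10, adjusted p = 0.0122) and Nop56 (0.45 ± 0.12, adjusted p = 0.0176). The RNA methyltransferase gene Nop2 did not pass (0.38 ± 0.13, adjusted p = 0.0607), nor did Snu13 (0.42 ± 0.15, adjusted p = 0.0855). Of the 4 snoRNA hosts, Snhg14, Snhg17 and Gm15832 had negative values and Cct6a rose (0.53 ± 0.08, adjusted p = 0.00120). None of the 3 calls held without controls 2 and 3, where edgeR called 0 genes of the list, 4 of the 5 had an unadjusted p under 0.05, and the log2 fold changes of these 3 were 0.56, 0.37 and 0.35.

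Of 19 microRNA processing and effector proteins, 6 were listed, all lower, where 64.9% of all listed genes were lower. Beside 42.8% of the listed genes tested, 5 of the 6 fell, with a median of -0.55. These were the Argonaute gene Ago3 (-0.88 ± 0.18, adjusted p = 0.00505), the Argonaute partners Tnrc6b (-0.69 ± 0.16, adjusted p = 0.0121) and Tnrc6c (-0.40 ± 0.12, adjusted p = 0.0313), the helicase gene Ddx17 (-0.39 ± 0.10, adjusted p = 0.0148) and the uridylyltransferase gene Tut7 (-0.69 ± 0.20, adjusted p = 0.0303). Drosha, the nuclease that cuts microRNA precursors from their hosts, had a value of -0.32 ± 0.11 that did not pass (adjusted p = 0.0814). With TMM and with the new size factors 2 of the 6 were called. The Tut7 call ended in 7 of the 16 leave-one-out fits (controls 2, 3 and 5, beta-glucan 7, 8, 12 and 13), with adjusted p up to 0.0703.

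Spliced host RNAs are often broken down by nonsense-mediated decay, and many snoRNA hosts begin with an oligopyrimidine tract that couples them to translation. Of 20 decay and exon junction factors 3 were listed. The release factor gene Etf1 rose (0.30 ± 0.09, adjusted p = 0.0363), the decay kinase gene Smg1 fell (-0.56 ± 0.18, adjusted p = 0.0463) and Pnrc2 did not pass (0.26 ± 0.09, adjusted p = 0.0636). The calls of Etf1 and Smg1 ended in 10 and 12 of the 16 leave-one-out fits, with adjusted p up to 0.0776 and 0.110. Of 14 proteins that bind such tracts or signal to them 3 were listed. Cnbp rose (0.40 ± 0.09, adjusted p = 0.00909), and the translation repressor genes Eif4ebp2 (-0.35 ± 0.09, adjusted p = 0.0206) and Tial1 (-0.44 ± 0.12, adjusted p = 0.0253) fell. Those falls were not called with TMM, where 1 gene of the list passed. Without beta-glucan 8 or 12 or without control 5 or 7 the Tial1 call ended, with adjusted p up to 0.0554.

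The count filter removed 12 of the 55, among them Snhg14. All 12 had negative log2 fold changes in the fit without the filter, from -3.06 (Snhg14) to -1.43 (Gm15927), and 8 of them fell there. In that fit 47.7% of all listed genes fell. The authors had listed all 12 as lower in this same contrast, so the negative signs add no evidence. A gene that passes such a filter through its control libraries alone is more likely to show a fall, so the counts over the 43 do not extend to all 55. The authors' deposited table holds all 55 with an adjusted p under 0.05, including Snhg14 (0.000136), Snhg17 (0.0181) and A330023F24Rik (0.0317).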

How the data were processed

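RNA sequencing libraries of bone marrow-derived macrophages (8 control, 8 beta-glucan) were grouped by the treatment label. The tools named in the submitters' processing notes were STAR 2.5, HTSeq 0.6.1, CASAVA and DESeq2, with genome build mm10. Not given in the sources used here are strand setting and annotation release. Deposited read counts are integers for every gene and library. The deposited normalized counts, a signal, are those counts divided by 1 size factor per library. The deposited FPKM values divide the normalized counts by gene length, on a common scale of 17937135 reads. The authors' log2 fold changes and p-values come with Benjamini-Hochberg adjustment over 17130 genes, as their ranks show, and the table holds the 3071 genes under 0.05. Genes outside it were not analysed here.

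The counts were fitted with edgeR 4.0.16 in R 4.3.3 (filterByExpr, glmQLFit, glmQLFTest, two-sided) on all listed genes. Library sizes were the deposited size factors times 17937135, or 15492864 to 20738976 reads, and p was adjusted over 17130 genes with a threshold of 0.05. Standard errors were the log2 fold change divided by the root of F. The step was tested on simulated data. Levels between genes were compared by FPKM alone. Overlaps, host status and snoRNA sequences came from GENCODE M21 (GRCm38), in which 54 of the 55 genes had the coordinates of the table and 54 the same biotype. MicroRNA sequences came from RefSeq (GRCm38.p6). Python 3.11.15 with pandas 2.3.3 and matplotlib 3.10.9 was used for summaries and figures.

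Named genes were all hosts by name or annotation, then of the other members up to 6 with the largest rise and 6 with the largest fall among those called and the 4 most abundant, then overlapping listed coding genes and up to 4 genes of each of 4 lists by p. Firre, 4930404I05Rik and genes at the ends of a range were added. The members, lists and tests were chosen with earlier results of these data known. Same-numbered libraries did not deviate together throughout. Their correlations were 0.47, 0.03, -0.18, -0.08, 0.20 and 0.24 for numbers 5, 7, 9, 10, 12 and 13. Libraries numbered 5 correlated best with each other, and those numbered 12 and 13 ranked 2 in both directions. The labels do not say whether the numbers pair libraries, and the main fit used no pairing. Alternatives were DESeq2 1.42.0, TMM, recomputed size factors, no filter, the replicate block and leaving out libraries. Leaving out beta-glucan 7 and 12, or controls 2, 3 and 5, was chosen after seeing the data.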

Additional observations from a re-analysis of the deposited data

Results flagged for a closer look

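In 18 named members the highest and lowest library of each group was set against Dixon's criterion for 8 samples (the gap to the next library over the group's range), and 3 of 36 groups passed it. For independent and normally distributed values it would flag about 1 in 20 groups. The genes share the same 16 libraries and their counts need not be normal, so that rate need not hold here. Snhg14 had 16.4 normalized counts in beta-glucan 5, against 4.61 in the next library of that group. Ptpmt1 had 524 in control 12, against 356 in the next control, and its rise passed without that library. Gm12940 had 391 in control 5, against 258 in the next control.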

How the results depend on the processing

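All processed transcripts tested kept the sign of their log2 fold change in every alternative, while the number called moved widely. Calls over all listed genes moved widely too, with 1882 as reported and 2942 with DESeq2. They were 785 without beta-glucan 7 and 12, 629 without controls 2 and 3, and 211 without controls 2, 3 and 5. Of the 55, 35 were called as reported, 54 with DESeq2, 20 without beta-glucan 7 and 12, 13 without controls 2 and 3, 2 without controls 2, 3 and 5, and 27 to 37 when single libraries were left out. With TMM there were 27, with recomputed size factors 28 and with no filter 43. The same counts were 1, 3, 1, 0, 0 and 1 to 3 for the genes named Snhg or Mir (2 with no filter, 2 without controls 12 and 13, and 5 when hosts were taken by annotation), and 34, 51, 19, 13, 2 and 26 to 35 for the others. For hosts by annotation they were 5, 8, 3, 1, 1 and 5 to 7. The medians ranged from -1.34 to -0.97 for the named genes and from -1.52 to -1.26 for the others when single libraries were left out. For the lists, calls without beta-glucan 7 and 12, without controls 2 and 3, without controls 2, 3 and 5 and with single libraries left out were 2, 0, 0 and 3 to 5 for snoRNA particles (reported 3, and 5 both with recomputed size factors and without controls 12 and 13). They were 0, 0, 0 and 0 to 3 for decay factors (reported 2), 1, 2, 0 and 3 to 6 for microRNA proteins (reported 5, and 2 with TMM and with recomputed size factors), and 1, 0, 0 and 2 to 3 for oligopyrimidine binding (reported 3, and 1 with TMM and with recomputed size factors). Where 0 genes passed in edgeR without controls 2 and 3, the unadjusted p was under 0.05 for 2 of 2 named genes, 4 of 5 snoRNA particle, 3 of 3 decay and 3 of 3 oligopyrimidine genes. Where libraries or methods changed a count, the cause was not tested. With the replicate number as a block, over the 12 libraries that share numbers, 3 processed transcripts were called, against 0 in the same libraries with no block term, where 37 of 44 had an unadjusted p under 0.05 in edgeR. That block gave 0 for the named genes, 3 for the others, 0 for annotated hosts, and 0, 1, 2 and 0 for the lists in the order above, with Cct6a at 0.47 (adjusted p = 0.0522). Over all listed genes tested, the block gave 355 calls, against 68 in the same libraries with no block term. Each number's libraries did not all correlate best with each other, though those numbered 5 did, so a pairing cannot be told from these values. Over the named genes, 790 alternative values kept their side of the threshold, 151 lost the call and 33 gained it. Genes with few reads, such as Snhg14, limit what depth can show, as 20 of the 55 had a beta-glucan library with no read.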
